A study of Homo sapiens with 12 samples.

Results

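The genes described here were 57 protein-coding genes of mitosis and the spindle, chosen by symbol from 60580 listed genes. They were followed in HCT116 cells, an established human colorectal cancer cell line with functional p53, after deletion of all 3 *miR-34* genes. The 4 states were wild-type (*WT*) and *miR-34a/b/c-KO* (hereafter *KO*) cells, each treated for 48 h with DMSO as the vehicle or with 4 µM 5-FU, a pyrimidine analog that disturbs nucleotide synthesis. The *WT* cells carry intact *miR-34a* and *miR-34b/c*, whereas both loci were deleted with CRISPR/Cas9 in the *KO* cells, which were grown from single-cell clones, as were the *WT* controls. The study describes the replicates as biological. Which clone or culture gave which library is not given in the sources used here, so that p-values measure the spread between these libraries. That spread was estimated per gene over all 4 states together. Every state had 3 libraries, except for 5-FU-treated *WT* cells. The file labelled as replicate 1 of that state differed in 0 of 60580 genes from replicate 3 of DMSO-treated *WT* cells and was left out, which left replicates 2 and 3. All values rest on 11 libraries of 22831415 to 39064210 counts.

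Mitosis is driven by CDK1 bound to B-type cyclins, and the spindle checkpoint holds the anaphase promoting complex in check until all kinetochores are attached to microtubules. Most genes of this program are transcribed late in the cell cycle. Before that, the DREAM complex silences them through CHR elements close to the transcription start, and p53 extends this silencing by inducing the CDK inhibitor p21. The microRNAs of the *miR-34* family are themselves induced by p53 and repress mRNAs that carry matches to their seed. The labelled cell type was checked with epithelial markers: *EPCAM*, *KRT8*, *KRT18*, *KRT19* and *CDH1* had 2496 to 235151 counts per library, whereas *VIL1* had 0 to 53. Their sum was 5250 to 5640 CPM under DMSO, 11100 to 12100 CPM in *WT* and 8530 to 9010 CPM in *KO* cells under 5-FU. The 4 immune markers summed to 0 to 0.308 CPM. Among 5 fibroblast markers, *DCN* and *LUM* had at most 1 count and *COL1A1* had 492 to 2311. The fibroblast sum was 21.7 to 26.8 and 46.0 to 50.6 CPM in *WT* and *KO* cells under DMSO, and 49.6 to 59.9 and 69.8 to 70.6 CPM under 5-FU. The 3 endothelial markers summed to 6.13 to 6.42 CPM in 5-FU-treated *WT* cells and to 1.02 to 1.86 CPM elsewhere. The part of these markers in the results was not tested. *MIR34A*, *MIR34B* and *MIR34C* were listed with 0 counts in every library, which checks nothing in sequencing of long RNA. The host transcript *MIR34AHG*, annotated over the deleted *miR-34a* precursor on chromosome 1, stood at 4.25 to 5.25 CPM in *WT* and 21.5 to 22.4 CPM in *KO* cells under DMSO, and does not check the deletion of the precursor either.

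To show the elements through which such genes are known to be controlled, 120 bases before the start are printed for 5 members. *CCNB2*, *CDC20* and *PLK1* fell after 5-FU in both genotypes, and the change of *CDK1* and *MKI67* after 5-FU differed between the genotypes. Sequences are from RefSeq (GRCh38.p14) and run 5′ to 3′ on the strand of the gene. Capitals mark the CHR letters TTTGAA or TTCGAA and CCAAT, the motif bound by NF-Y, each on either strand (TTCAAA and ATTGG on the opposite strand). In *MKI67* a CHR match and a reversed CCAAT match share letters.
*CCNB2*, chr15:59105026-59105145 (+): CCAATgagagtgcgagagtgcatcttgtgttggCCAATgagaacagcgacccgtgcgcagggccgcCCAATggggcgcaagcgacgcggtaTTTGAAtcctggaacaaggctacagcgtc
*CDC20*, chr1:43358861-43358980 (+): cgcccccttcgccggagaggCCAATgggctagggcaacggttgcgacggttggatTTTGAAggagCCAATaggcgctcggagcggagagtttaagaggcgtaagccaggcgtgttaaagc
*PLK1*, chr16:23678769-23678888 (+): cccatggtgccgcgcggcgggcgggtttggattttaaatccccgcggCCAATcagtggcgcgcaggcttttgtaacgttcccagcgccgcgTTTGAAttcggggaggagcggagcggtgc
*CDK1*, chr10:60778358-60778477 (+): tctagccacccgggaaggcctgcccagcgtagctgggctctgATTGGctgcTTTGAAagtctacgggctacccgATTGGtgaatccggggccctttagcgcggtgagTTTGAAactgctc
*MKI67*, chr10:128126424-128126543 (-): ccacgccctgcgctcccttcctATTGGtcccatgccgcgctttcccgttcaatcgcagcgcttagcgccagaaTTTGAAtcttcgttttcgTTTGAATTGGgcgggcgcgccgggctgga

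Promoter windows (250 bases before to 50 after the start) were found for 48 of the 57 members. A CHR match lay in 39 of them (81.2%), against 16.4% of all 34943 windows and 11.7% of the 16094 windows of genes tested here. CCAAT was found in 37 of the 48 (77.1%), against 34.6% of all windows. Both motifs were present in 30 (62.5%), against 6.40% of all windows. The 52 CHR matches had a median position of -23, and 40 of them lay within 50 bases of the start. The 83 CCAAT matches lay further upstream, at a median of -75. CHR matches were present in 11 of 13 promoters of members called lower after 5-FU in both genotypes and in 14 of 15 promoters of members whose response differed between the genotypes, with *PLK4* counted in both. In these groups the windows without a CHR match were those of *CCNB1*, *KIF20A* and *CENPE*. CCAAT was found 2 times each in *CCNB1* and *KIF20A*, and not in *CENPE*. A match in a window is a description of its letters and does not show binding.

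All 57 members passed the filter of at least 20 counts in at least 1 library, as did 16123 genes in total, and their counts ranged from 352 to 18873 per library. Per kilobase of exon, levels in DMSO-treated *WT* cells ran from 5.46 CPM for *CENPE*, the kinetochore kinesin, over a median of 29.9 to 180 CPM for *CKS2*, the small CDK-binding subunit. *CDC20* and *CCNB1* followed at 137 and 106 CPM per kilobase. The members together took 0.736 to 0.790% of the counts of DMSO-treated *WT* libraries and 0.471 to 0.633% of the others. Their summed level was 7513 to 8272 CPM in *WT* and 6132 to 6348 CPM in *KO* cells under DMSO, and these groups did not overlap. After 5-FU the sums were 4763 and 5372 CPM in *WT* and 5363 to 5450 CPM in *KO* cells, which overlapped. In RNA of a whole culture, fewer cells near mitosis and less RNA per cell cannot be told apart. The median SD of the members was 3.09 to 6.02% of the mean in the 3 states with 3 libraries and 11.9% in 5-FU-treated *WT* cells. Because the tests pooled the spread over all states, their p-values and standard errors do not follow the wider spread of that state.

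**Figure D1:**
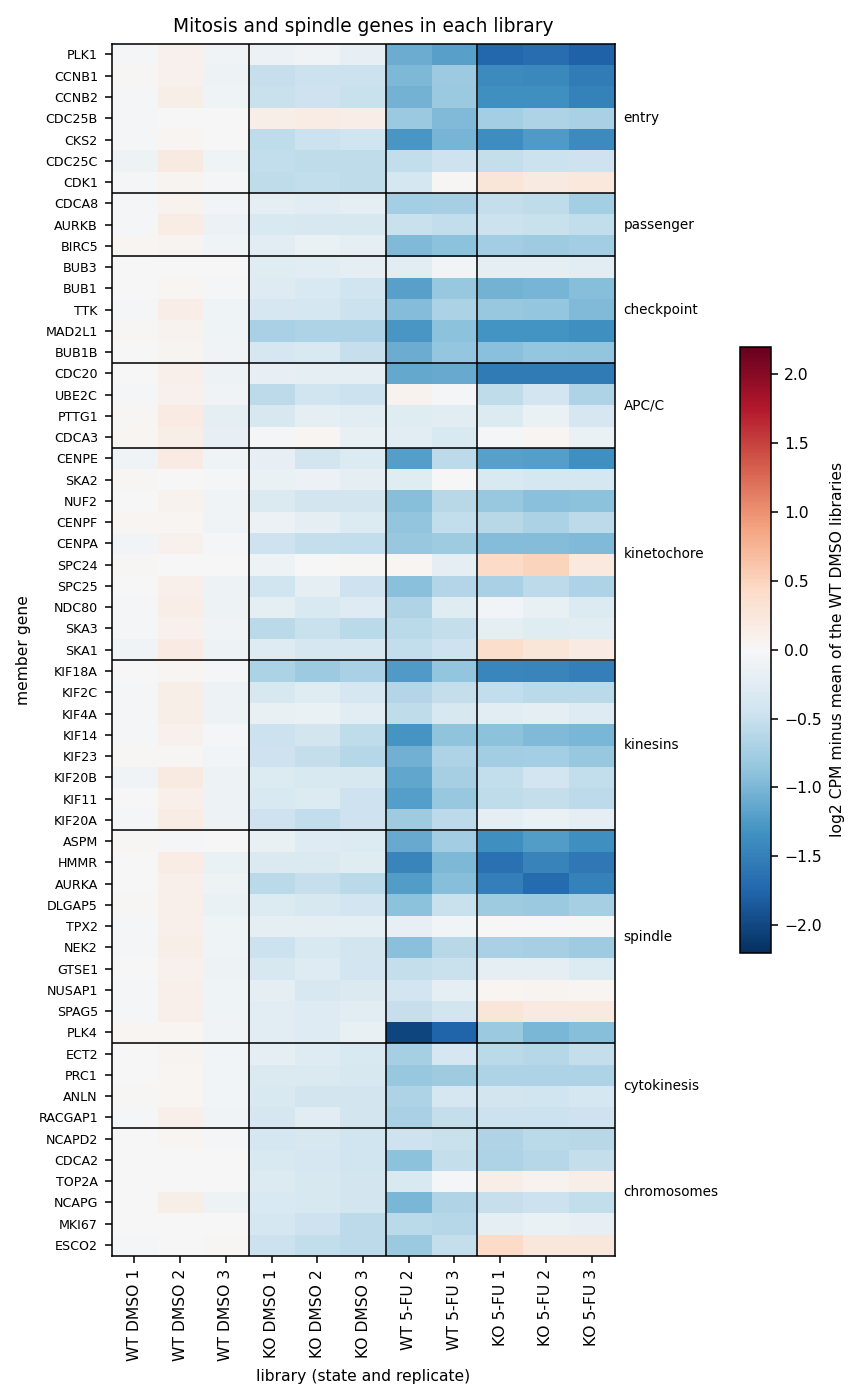
Level of the 57 members (rows, by role and ordered by the interaction estimate within a role) in the 11 libraries (columns), colored by log2 CPM minus the mean of the 3 DMSO-treated *WT* libraries. *CDC25B* is the member that is higher in all DMSO-treated *KO* libraries, and *PLK4* is lowest in 5-FU-treated *WT* cells. *CDK1*, *SKA1*, *ESCO2*, *SPC24* and *SPAG5* are among the members that are red in 5-FU-treated *KO* cells.

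The first comparison asked how the members differed between genotypes without drug. A gene was called at FDR < 0.05 (edgeR quasi-likelihood test, Benjamini-Hochberg adjustment over all 16123 genes) with a fold change above 1.5. Differences are log2 fold changes ± SE. In DMSO-treated cells, 2 members were called lower in *KO* than in *WT* cells and 0 higher, against 4.97% of all genes lower and 9.10% higher. At FDR < 0.05 with any fold, 52 members were lower and 1 was higher, against 21.9% and 24.5% of all genes. The median difference was -0.35, while that of all genes was 0.03. The called members were *KIF18A*, a kinesin that dampens chromosome movements at the metaphase plate (-0.74 ± 0.08, FDR = 8.11e-07), and *MAD2L1*, which encodes the checkpoint protein MAD2 (-0.69 ± 0.07, FDR = 1.03e-06). *KIF18A* measured 88.8, 92.5 and 87.4 CPM in *WT* and 55.4, 51.4 and 54.5 CPM in *KO* cells, with no overlap. *MAD2L1* was at 170, 176 and 157 CPM in *WT* and 102, 105 and 105 CPM in *KO* cells. Every *KO* library lay below every *WT* library for 53 members, as it did for 27.4% of all genes. The exception in direction was *CDC25B*, a phosphatase that activates CDK1, at 0.14 ± 0.05 (FDR = 0.0216). With the fold change required inside the test, 0 members were called in either direction. With 1 factor of unwanted variation (RUVg), the median difference was 0.01 and 1 member was called lower. Without replicate 3 of DMSO-treated *WT* cells 5 members were called lower, and without replicate 2 of DMSO-treated *KO* cells 4.

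After 5-FU, 36 of the 57 members fell in *WT* cells and 0 rose, against 9.38% of all genes lower and 18.5% higher. At any fold, 52 members were lower and 0 higher, against 28.3% and 31.9% of all genes. The median change was -0.70, beside 0.03 for all genes, and both 5-FU libraries lay below all 3 DMSO libraries for 52 members (32.3% of all genes). The largest decreases were those of *PLK4*, the kinase that starts centriole duplication (-1.89 ± 0.09), *HMMR*, a spindle pole protein (-1.21 ± 0.11), *CKS2* (-1.15 ± 0.08), the mitotic kinase *PLK1* (-1.14 ± 0.06) and *CDC20*, the activator of the anaphase promoting complex (-1.12 ± 0.06). Among the 5 members that did not pass FDR < 0.05 was *UBE2C*, a ubiquitin-conjugating enzyme that works with that complex (0.03 ± 0.07, FDR = 0.723). Others were *TPX2*, the activator of Aurora A (-0.12 ± 0.06, FDR = 0.0975), and *CDK1* (-0.17 ± 0.08, FDR = 0.0834). Without replicate 2 of 5-FU-treated *WT* cells 29 members were called lower, and without replicate 3 the number was 40.

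In *KO* cells 14 members fell after 5-FU and 3 rose, against 12.0% of all genes lower and 13.3% higher. At any fold, 32 were lower and 11 higher, against 33.8% and 26.6% of all genes. The median change was -0.24, beside -0.06 for all genes. The 5-FU libraries lay below the DMSO libraries for 37 members and above them for 12 (38.4% and 30.4% of all genes). All 14 members that fell in *KO* cells also fell in *WT* cells, namely *CCNB1*, *CCNB2*, *CKS2*, *CDC25B*, *PLK1*, *BUB1*, *MAD2L1*, *CDC20*, *CENPE*, *KIF18A*, *AURKA*, *HMMR*, *ASPM* and *PLK4*, whereas 5.01% of all genes fell in both genotypes. Another 21 members were called lower in *WT* cells alone, without this being a test of the difference. Over all 16123 genes, 1512 (9.38%) were called lower in *WT* cells and 808 (5.01%) in both genotypes. A further 19 members were called in neither genotype, a share that was not counted over all genes. *ESCO2*, an acetyltransferase that locks sister chromatids together in S phase, fell in *WT* and rose in *KO* cells. *CDK1* and *SKA1* rose in *KO* cells and were not called in *WT* cells.

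**Figure D2:**
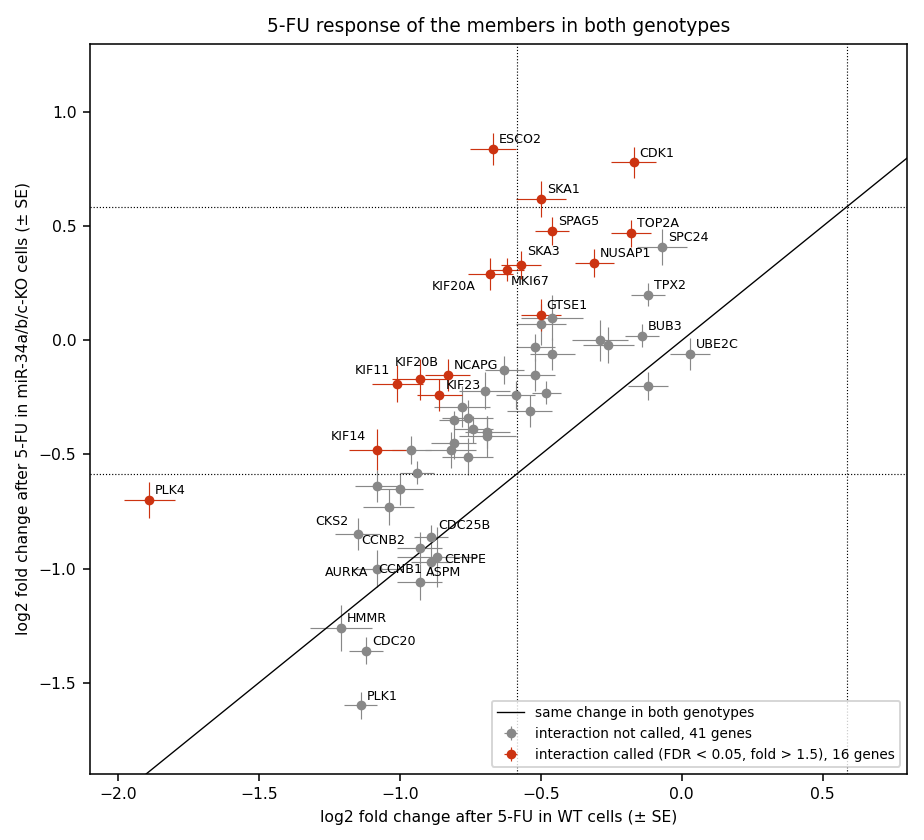
Log2 fold change after 5-FU in *KO* cells (vertical axis) against that in *WT* cells (horizontal axis) for the 57 members, with SE as bars, a diagonal for equal change and dotted lines at a fold change of 1.5. The 16 members with a called interaction (red) lie above the diagonal and *PLK1* and *CDC20* lie below it.

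**Figure D3:**
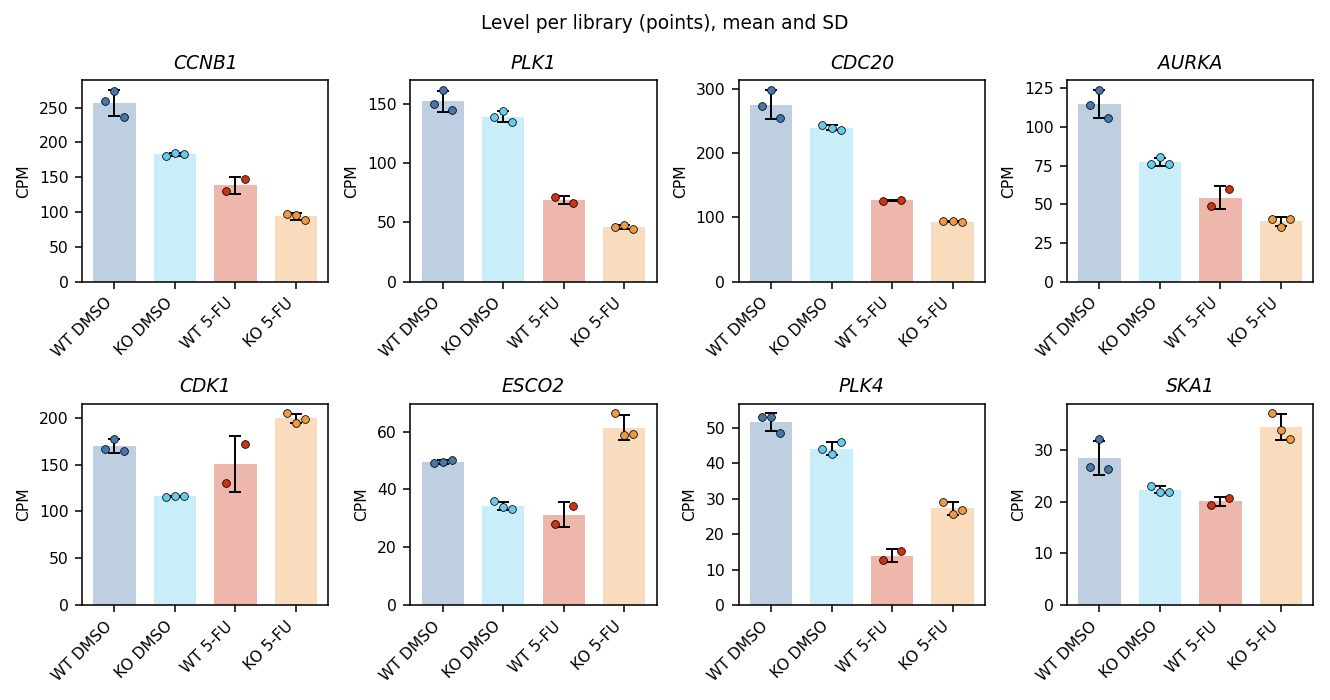
CPM of 8 members in each library (points), with the mean (bars) and SD (error bars) of each state of 3 libraries, or 2 for 5-FU-treated *WT* cells. *CCNB1*, *PLK1*, *CDC20* and *AURKA* are lowest in 5-FU-treated *KO* cells, whereas *CDK1*, *ESCO2* and *SKA1* have their highest means there.

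The change after 5-FU was compared between the genotypes by the interaction, that is the log2 fold change in *KO* cells minus that in *WT* cells. The interaction was called above 0 for 16 members and below 0 for 0, against 3.42% and 6.66% of all genes. At any fold it was above 0 for 38 members and below 0 for 2, against 10.1% and 16.0% of all genes. The median was 0.36, beside -0.09 for all genes. An interaction above 0 can stand for a smaller fall as well as for a rise. It contains the change in *WT* cells, so that the 2 estimates are not independent. The number called was 11 without replicate 2 and 24 without replicate 3 of 5-FU-treated *WT* cells. With the fold change required inside the test it was 8.

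Among the 7 members that start mitosis, 5 fell in each genotype and *CDK1* rose in *KO* cells. *CDK1* stood at 167, 178 and 165 CPM in the *WT* libraries and at 115, 117 and 116 CPM in the *KO* libraries under DMSO. Under 5-FU, *CDK1* measured 130 and 172 CPM in *WT* and 205, 195 and 199 CPM in *KO* cells. The 5-FU-treated *KO* libraries lay above every other library, while both 5-FU-treated *WT* libraries differed from each other by more than from DMSO on average. *CDK1* changed by 0.78 ± 0.07 in *KO* cells (FDR = 1.65e-07) and its interaction was 0.95 ± 0.11 (FDR = 1.79e-05). Cyclin B1, its partner, moved in the other direction. *CCNB1* stood at 260, 274 and 237 CPM in the *WT* libraries and at 181, 185 and 184 CPM in the *KO* libraries under DMSO. Under 5-FU, *CCNB1* measured 130 and 147 CPM in *WT* and 97, 96 and 88 CPM in *KO* cells. The 4 states did not overlap and the lowest values were those of 5-FU-treated *KO* cells. *CCNB1* changed by -0.89 ± 0.07 in *WT* and -0.97 ± 0.06 in *KO* cells, with an interaction of -0.08 ± 0.09 (FDR = 0.554). *CCNB2*, the other B-type cyclin, changed by -0.93 ± 0.08 and -0.91 ± 0.07. *PLK1* stood at 150, 162 and 145 CPM in the *WT* libraries and at 139, 144 and 135 CPM in the *KO* libraries under DMSO. Under 5-FU, *PLK1* measured 71.7 and 66.7 CPM in *WT* and 46.1, 47.4 and 44.4 CPM in *KO* cells. *PLK1* was thus lowest in 5-FU-treated *KO* cells and had the most negative interaction of all members (-0.46 ± 0.08, FDR = 0.000668), below 1.5-fold. *CDC25B* stood at 307, 315 and 315 CPM in the *WT* libraries and at 342, 350 and 345 CPM in the *KO* libraries under DMSO. Under 5-FU, *CDC25B* measured 177 and 160 CPM in *WT* and 187, 194 and 190 CPM in *KO* cells. *CDC25B*, the member of this role with the highest level, fell by 0.89 in *WT* and by 0.86 in *KO* cells on the log2 scale, with an interaction of 0.04 ± 0.07 and no overlap between the treatments. *CDC25C*, the second phosphatase of CDK1 here, was called in neither genotype.

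The chromosomal passenger complex corrects faulty kinetochore attachments. Of its 3 members, 2 fell in *WT* cells (*BIRC5*, which encodes survivin, and *CDCA8*, which encodes borealin) and 0 in *KO* cells, and 0 had a called interaction. *AURKB* stood at 81.2, 92.5 and 75.3 CPM in the *WT* libraries and at 65.3, 65.1 and 64.7 CPM in the *KO* libraries under DMSO. Under 5-FU, *AURKB* measured 59.2 and 56.7 CPM in *WT* and 59.9, 58.8 and 56.6 CPM in *KO* cells. *AURKB*, the kinase of the complex, was higher in all DMSO-treated *WT* libraries than in any other. *BIRC5* stood at 232, 236 and 211 CPM in the *WT* libraries and at 193, 205 and 196 CPM in the *KO* libraries under DMSO. Under 5-FU, *BIRC5* measured 115 and 121 CPM in *WT* and 133, 132 and 133 CPM in *KO* cells. *BIRC5* changed by -0.94 ± 0.06 in *WT* and by -0.58 ± 0.05 in *KO* cells, the latter just under 1.5-fold, and the 5-FU libraries of the genotypes did not overlap.

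Of the 5 checkpoint members, 4 fell in *WT* and 2 in *KO* cells, and 0 had a called interaction. *BUB1B* stood at 148, 153 and 140 CPM in the *WT* libraries and at 114, 117 and 103 CPM in the *KO* libraries under DMSO. Under 5-FU, *BUB1B* measured 68.9 and 81.5 CPM in *WT* and 77.9, 81.4 and 80.6 CPM in *KO* cells. *BUB1B*, which encodes the checkpoint kinase homolog BUBR1, reached overlapping levels after 5-FU from different levels under DMSO. *BUB3* stood at 303, 302 and 300 CPM in the *WT* libraries and at 252, 255 and 259 CPM in the *KO* libraries under DMSO. Under 5-FU, *BUB3* measured 256 and 291 CPM in *WT* and 261, 259 and 256 CPM in *KO* cells. *BUB3*, the member of this role with the highest level, was not called in any comparison.

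Among the 4 members of the anaphase promoting complex, its ubiquitin conjugation and its substrates, *CDC20* fell in both genotypes. *CDC20* stood at 274, 299 and 255 CPM in the *WT* libraries and at 244, 240 and 236 CPM in the *KO* libraries under DMSO. Under 5-FU, *CDC20* measured 126 and 127 CPM in *WT* and 93.9, 93.9 and 93.2 CPM in *KO* cells. The groups did not overlap, and the interaction was below 0 (-0.24 ± 0.08, FDR = 0.0403), with a fold under 1.5. *CDCA3* stood at 36.6, 38.8 and 31.1 CPM in the *WT* libraries and at 34.8, 36.2 and 31.4 CPM in the *KO* libraries under DMSO. Under 5-FU, *CDCA3* measured 29.9 and 28 CPM in *WT* and 34.2, 36.4 and 31.9 CPM in *KO* cells. *CDCA3*, an adaptor that targets the kinase WEE1 for degradation, was called nowhere. *PTTG1*, which encodes securin, changed by -0.26 ± 0.09 and -0.02 ± 0.08, and *UBE2C* by 0.03 ± 0.07 and -0.06 ± 0.07.

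Of the 10 kinetochore and centromere members, 5 fell in *WT* cells, whereas in *KO* cells 1 fell (*CENPE*) and 1 rose (*SKA1*). *SKA1* stood at 26.7, 32.2 and 26.3 CPM in the *WT* libraries and at 23.1, 21.9 and 21.9 CPM in the *KO* libraries under DMSO. Under 5-FU, *SKA1* measured 19.4 and 20.7 CPM in *WT* and 37.1, 33.9 and 32.2 CPM in *KO* cells. *SKA1*, which helps the kinetochore to hold on to microtubules, had its highest mean in 5-FU-treated *KO* cells, of which the lowest library equalled the highest DMSO-treated *WT* library, and its interaction was 1.12 ± 0.13 (FDR = 1.18e-05). Its rise in *KO* cells (0.62 ± 0.08) was not called without replicate 1 of 5-FU-treated *KO* cells, at 0.57. Of the other SKA subunits, *SKA3* had a called interaction (0.89 ± 0.09) and *SKA2* did not (-0.08 ± 0.09). *CENPF* stood at 256, 256 and 237 CPM in the *WT* libraries and at 229, 214 and 202 CPM in the *KO* libraries under DMSO. Under 5-FU, *CENPF* measured 136 and 172 CPM in *WT* and 164, 154 and 168 CPM in *KO* cells. *CENPF*, a large kinetochore protein and the member of this role with the highest level, changed by -0.69 ± 0.08 in *WT* and -0.40 ± 0.07 in *KO* cells. The NDC80 complex binds the microtubule end, and its 4 genes differed in *KO* cells, from -0.51 for *NUF2* and -0.29 for *SPC25* to 0.10 for *NDC80* and 0.41 for *SPC24*, of which none was called.

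Of the 8 kinesins in this role, 5 had a called interaction. In *WT* cells 7 of the 8 fell, in *KO* cells only *KIF18A*. *CENPE*, also a kinesin, was counted with the kinetochore and fell in both genotypes. *KIF20A* stood at 112, 128 and 106 CPM in the *WT* libraries and at 84.3, 78.8 and 83.8 CPM in the *KO* libraries under DMSO. Under 5-FU, *KIF20A* measured 66.7 and 76.7 CPM in *WT* and 100, 104 and 98.9 CPM in *KO* cells. *KIF20A*, a motor of the central spindle, was higher in every 5-FU-treated *KO* library than in any *WT* library under 5-FU, and its interaction was 0.98 ± 0.10 (FDR = 5.82e-06). *KIF11*, which pushes the spindle poles apart, changed by -1.01 ± 0.09 in *WT* and -0.19 ± 0.08 in *KO* cells. *KIF20B*, *KIF23* and *KIF14* had interactions of 0.77, 0.62 and 0.60. *KIF2C* stood at 129, 143 and 122 CPM in the *WT* libraries and at 103, 109 and 101 CPM in the *KO* libraries under DMSO. Under 5-FU, *KIF2C* measured 84.3 and 90.9 CPM in *WT* and 89.9, 87.4 and 87 CPM in *KO* cells. *KIF2C*, the microtubule depolymerase MCAK, overlapped between genotypes after 5-FU.

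Of the 10 members of spindle assembly and the centrosome, 6 fell in *WT* and 4 in *KO* cells, and 4 had a called interaction (*PLK4*, *SPAG5*, *NUSAP1* and *GTSE1*). *PLK4* stood at 53.1, 52.9 and 48.6 CPM in the *WT* libraries and at 43.9, 42.5 and 46 CPM in the *KO* libraries under DMSO. Under 5-FU, *PLK4* measured 12.7 and 15.2 CPM in *WT* and 29.1, 25.7 and 26.9 CPM in *KO* cells. *PLK4* fell in both genotypes, by 1.89 in *WT* and by 0.70 in *KO* cells on the log2 scale, and its interaction was 1.20 ± 0.12 (FDR = 3.21e-06). *SPAG5* stood at 101, 111 and 95.8 CPM in the *WT* libraries and at 87.2, 84.5 and 85.7 CPM in the *KO* libraries under DMSO. Under 5-FU, *SPAG5* measured 72.2 and 77 CPM in *WT* and 123, 118 and 118 CPM in *KO* cells. *SPAG5*, which encodes astrin, a protein of spindle and kinetochore, was highest in all 5-FU-treated *KO* libraries, with an interaction of 0.94 ± 0.08 (FDR = 1.12e-06). *TPX2* stood at 319, 347 and 304 CPM in the *WT* libraries and at 282, 282 and 281 CPM in the *KO* libraries under DMSO. Under 5-FU, *TPX2* measured 286 and 309 CPM in *WT* and 321, 326 and 320 CPM in *KO* cells. *TPX2*, the member of this role with the highest level, was not called anywhere. *AURKA*, the kinase that TPX2 activates, changed by -1.08 ± 0.09 and -1.0 ± 0.08, *HMMR* by -1.21 ± 0.11 and -1.26 ± 0.10 and the spindle pole gene *ASPM* by -0.93 ± 0.08 and -1.06 ± 0.08. Their interactions were 0.08 ± 0.12, -0.05 ± 0.14 and -0.13 ± 0.11, and their SE do not exclude a modest difference.

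Of the 4 cytokinesis members, 2 fell in *WT* cells (*PRC1* and *RACGAP1*) and 0 in *KO* cells, and 0 had a called interaction. *RACGAP1* stood at 169, 187 and 164 CPM in the *WT* libraries and at 134, 145 and 131 CPM in the *KO* libraries under DMSO. Under 5-FU, *RACGAP1* measured 105 and 120 CPM in *WT* and 124, 124 and 126 CPM in *KO* cells. *RACGAP1*, a subunit of centralspindlin, had an interaction of 0.50 ± 0.09 (FDR = 0.000996). *ANLN* stood at 303, 308 and 287 CPM in the *WT* libraries and at 236, 226 and 227 CPM in the *KO* libraries under DMSO. Under 5-FU, *ANLN* measured 187 and 231 CPM in *WT* and 226, 222 and 228 CPM in *KO* cells. *ANLN*, which encodes the scaffold anillin, overlapped between treatments in *KO* cells alone.

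Of the 6 members of chromosome structure and cohesion, 4 fell in *WT* cells and 4 had a called interaction (*ESCO2*, *MKI67*, *NCAPG* and *TOP2A*). *ESCO2* stood at 49, 49.5 and 50.3 CPM in the *WT* libraries and at 35.9, 34.1 and 33.2 CPM in the *KO* libraries under DMSO. Under 5-FU, *ESCO2* measured 28.2 and 34.4 CPM in *WT* and 66.4, 58.7 and 59.2 CPM in *KO* cells. *ESCO2* lay higher in each 5-FU-treated *KO* library than in any other, and had the largest interaction of all members (1.5 ± 0.11, FDR = 2.28e-07). Its fall in *WT* cells (-0.67 ± 0.08) was not called without replicate 2 of 5-FU-treated *WT* cells, at -0.53. *MKI67* stood at 545, 546 and 546 CPM in the *WT* libraries and at 415, 396 and 365 CPM in the *KO* libraries under DMSO. Under 5-FU, *MKI67* measured 360 and 352 CPM in *WT* and 477, 495 and 480 CPM in *KO* cells. *MKI67*, which encodes the proliferation marker Ki-67 and had the highest CPM of this role, fell in *WT* cells and changed by 0.31 ± 0.05 in *KO* cells, with an interaction of 0.92 ± 0.08 (FDR = 6.26e-07). *TOP2A*, the topoisomerase that untangles chromosomes, changed by -0.18 ± 0.07 and 0.47 ± 0.06, and the condensin gene *NCAPG* by -0.83 ± 0.08 and -0.15 ± 0.07.

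Under 5-FU, 4 members were called higher and 1 lower in *KO* than in *WT* cells, against 7.58% and 10.6% of all genes. At any fold 20 were higher and 13 lower, against 21.6% and 28.0% of all genes. The median was 0.09, beside -0.05 for all genes, and it was -0.03 without replicate 2 and 0.17 without replicate 3 of 5-FU-treated *WT* cells. For 22 members all *KO* libraries were above both *WT* libraries and for 13 they were below (27.9% and 35.1% of all genes). The members called higher were *ESCO2* (0.98 ± 0.08), *PLK4* (0.97 ± 0.09), *SKA1* (0.78 ± 0.09) and *SPAG5* (0.68 ± 0.06). The member called lower was *PLK1* (-0.59 ± 0.06), which was not called without replicate 3 of 5-FU-treated *KO* cells (-0.57), without replicate 2 of 5-FU-treated *WT* cells (-0.53) or with TMM factors (-0.55). Without replicate 3 of 5-FU-treated *WT* cells 8 members were called higher and 2 lower, without replicate 2 the numbers were 4 and 4, and without replicate 1 or 2 of 5-FU-treated *KO* cells 2 were called lower. *UBE2C* (-0.58 ± 0.07) and *CCNB1* (-0.57 ± 0.07) stood just short of 1.5-fold. At FDR < 0.05 with any fold, 11 members were lower in *KO* cells under both treatments and 18 were lower under DMSO and higher under 5-FU, against 2131 (13.2%) and 323 of all 16123 genes. These comparisons share libraries with those above.

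The response was then set beside 110 other genes of mitosis in 5 lists. In *WT* cells 47 of the 110 (42.7%) fell after 5-FU and 0 rose, against 9.38% and 18.5% of all genes. In *KO* cells 10 (9.09%) fell and 3 (2.73%) rose, against 12.0% and 13.3% of all genes. Their interaction was called above 0 for 39 (35.5%) and below 0 for 1 (0.909%), at a median of 0.43. Over all genes the shares were 3.42% and 6.66%, which also stand beside each list below. Of 26 other kinetochore and centromere genes 11 had a called interaction, led by *DSN1* (1.19 ± 0.10), a subunit of the MIS12 complex, and the inner kinetochore genes *CENPQ* (1.15 ± 0.14) and *CENPP* (1.0 ± 0.16). Of 24 other genes of the checkpoint and the anaphase promoting complex 2 had one, *FBXO5* (0.88 ± 0.13), which encodes the inhibitor EMI1, and *KNTC1* (0.69 ± 0.10), which encodes the checkpoint protein ROD. Of 15 other kinases, phosphatases and cyclins 9 were called above 0, led by the phosphatase *CDC25A* (1.51 ± 0.10), the histone kinase *HASPIN* (1.21 ± 0.11) and *MASTL* (1.08 ± 0.12), which encodes the kinase Greatwall, and *ENSA*, a substrate of Greatwall, was called below 0 (-0.59). Of 28 other spindle, centrosome and cytokinesis genes 11 were called, among them *STIL* (1.05 ± 0.10), which acts with PLK4 in centriole duplication, *HAUS8* (1.0 ± 0.13) and *KIF15* (0.86 ± 0.10). Of 17 condensin and cohesin genes 6 were called, with *CDCA5* (1.10 ± 0.08), which encodes sororin, *NCAPH* (0.75 ± 0.09) and *SMC3* (0.70 ± 0.09) in front.

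**Figure D4:**
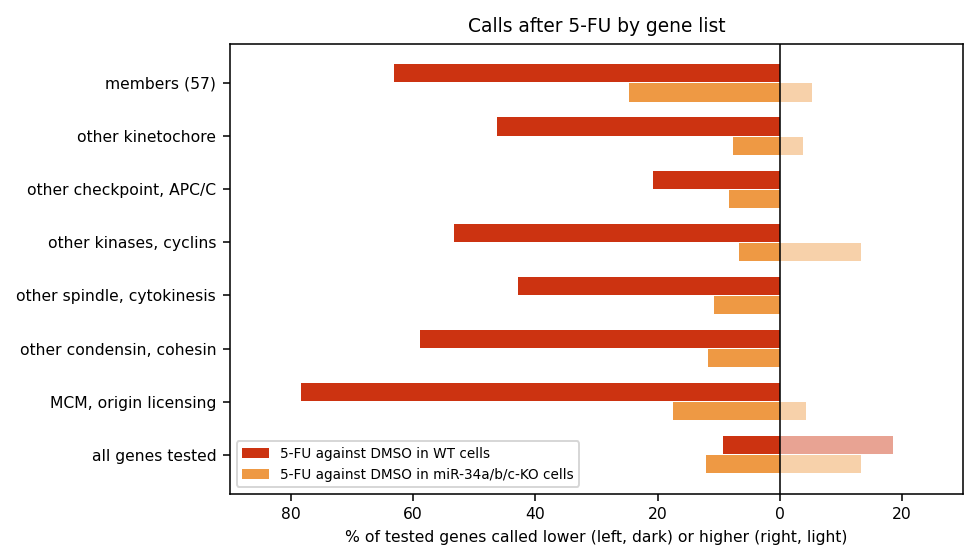
Percentage of genes called lower (bars to the left, dark) or higher (bars to the right, light) after 5-FU in *WT* and in *KO* cells, for the 57 members, the 5 lists of other mitotic genes, the MCM and origin licensing genes and all 16123 genes tested. The members were lower at 63.2% in *WT* and 24.6% in *KO* cells, beside 9.38% and 12.0% of all genes.

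The 23 genes of the MCM helicase and origin licensing act in G1 and S phase. Of these, 18 (78.3%) fell in *WT* and 4 (17.4%) in *KO* cells, against 9.38% and 12.0% of all genes. An interaction above 0 was called for 15 (65.2%), against 3.42% of all genes, and the median interaction was 0.79. The largest were *MCM10* (1.31 ± 0.09), *ORC1* (1.14 ± 0.12) and *GMNN* (1.09 ± 0.10), which encodes geminin. The difference between this list and the members was not tested. The 14 regulators of the members were the MuvB core, B-MYB, FOXM1, E2F and pocket proteins and p21. Of these, 6 had an interaction called above 0 and 1 below 0, against 3.42% and 6.66% of all genes. The regulator called below 0 was *CDKN1A*, which encodes p21 and changed by 3.64 ± 0.05 in *WT* and 2.40 ± 0.05 in *KO* cells. Its level was higher by 1.49 ± 0.05 in *KO* cells under DMSO. Under 5-FU *CDKN1A* was still higher in *KO* cells, by 0.26 ± 0.05 (not called), at means of 2480 CPM in *KO* and 2080 CPM in *WT* cells. *E2F1* (1.10 ± 0.12), *RBL1*, which encodes p107 (1.03 ± 0.14), and *MYBL2*, which encodes B-MYB (0.99 ± 0.11), had the largest interactions above 0. *FOXM1* changed by -0.31 ± 0.06 in *WT* and 0.17 ± 0.05 in *KO* cells, with an interaction of 0.48 ± 0.08 that was under 1.5-fold.

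The annotated 3′ UTR of 1 transcript per gene, the Ensembl canonical one, was searched for matches to the seeds of 2 of the deleted microRNAs. Other annotated 3′ UTRs of the same genes were not searched. The mature miR-34a-5p and miR-34b-5p are shown with the seed (bases 2 to 8) in capitals. They differ in the seed by a shift of 1 base, and miR-34c-5p is named only and was not searched on its own.
miR-34a-5p: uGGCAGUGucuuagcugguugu
miR-34b-5p: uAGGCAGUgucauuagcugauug
A 7mer-m8 or 8mer match to the miR-34a seed was found in the 3′ UTR of 1 of 57 members (1.75%), against 2305 of 13131 tested genes (17.6%), and 8mer matches in 0 members against 5.89% of genes. The members' 3′ UTRs were shorter, at a median of 680 bases against 1278, and a shorter UTR offers fewer places for a match. The match was in *BUB3*, at chr10:123169491-123169520 (+, GRCh38), shown with its 7 letters in capitals because it is the only one among the members for this seed.
*BUB3*: ggtcttcacagcCACTGCCctggtagtaag
*BUB3* was lower in *KO* cells under DMSO (-0.24 ± 0.05) and differed by -0.08 ± 0.06 under 5-FU, neither called. A 7mer-m8 or 8mer match to the miR-34b seed lay in 1 member (1.75%), against 15.8% of tested genes, and 8mer matches in 0 members against 2.45%. The member was *CDCA8*, which differed by -0.22 ± 0.06 under DMSO and by 0.13 ± 0.07 under 5-FU between *KO* and *WT* cells, neither called.

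Several members share sequence with other genes in the annotation. Opposite-strand genes cover 34.3% of the exons of *PRC1* (*PRC1-AS1*, at most 35 counts) and 33.7% of those of *NCAPG* (*LCORL*, at most 1085 counts), and whether counting used strand is not stated in the sources. Reads of such partners cannot then be told apart. Pseudogenes were searched by name, as the symbol of a member followed by P, with or without a number. These had at most 0.202% of the counts of the member, and pseudogenes with other names were not searched.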

How the data were processed

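Total RNA of HCT116 cells was sequenced by the authors, mapped to GRCh38/hg38 with CLC Genomics Workbench and counted on ENSEMBL genes. The deposited values were counts per gene symbol without normalization, and libraries were grouped by their titles. The 16123 genes that reached 20 counts in 1 or more of the 11 libraries were normalized to the upper quartile (factors 0.955 to 1.05) and analyzed with edgeR 4.0.16 in R 4.3.3 (glmQLFit and glmQLFTest, two-sided, 1 mean per state, biological coefficient of variation 6.72%). The 5 comparisons were adjusted by Benjamini-Hochberg over all genes and called at FDR < 0.05 and fold > 1.5. CPM used the scaled totals. The script was tested on simulated counts. Alternatives were TMM, DESeq2 1.42.0, RUVg, other filters and fold rules, a replicate block, the copied library and leaving out each library.

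The members and the lists were chosen with earlier results of these data known, and roles were written from general knowledge. Per role, the members with the largest interaction and the highest mean CPM, those called in opposite directions after 5-FU and those that rose are given with every library. Other members were named after their values were seen. From other lists up to 3 genes with the largest called interaction are named. Positions and exons came from GENCODE release 44 (GRCh38), which may differ from the release of the authors, and promoters from RefSeq (GRCh38.p14). Promoters of 9 members and the proteins were not analysed here.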

Additional observations from a re-analysis of the deposited data

Results flagged for a closer look

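The change after 5-FU differed between *WT* and *KO* cells in the test of the interaction (edgeR, FDR < 0.05, fold > 1.5) for 16 members. The log2 estimates were 0.95 for *CDK1*, 1.12 for *SKA1*, 0.89 for *SKA3*, 0.83 for *KIF11*, 0.60 for *KIF14*, 0.98 for *KIF20A*, 0.77 for *KIF20B*, 0.62 for *KIF23*, 0.65 for *NUSAP1*, 0.94 for *SPAG5*, 0.61 for *GTSE1*, 1.20 for *PLK4*, 0.64 for *TOP2A*, 0.68 for *NCAPG*, 0.92 for *MKI67* and 1.5 for *ESCO2*. After 5-FU *PLK4* fell in both genotypes, *ESCO2* fell in *WT* and rose in *KO* cells, and *CDK1* and *SKA1* rose in *KO* cells.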

How the results depend on the processing

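The upper-quartile scaling was replaced by TMM factors or by DESeq2, and the filter by none or by 20 counts in every library. Of 285 results (57 members in 5 comparisons), 282, 279, 283 and 281 kept their call and direction. *PLK1* was no longer lower in KO cells under 5-FU with TMM or DESeq2 (0 called), whereas 2 members were called lower there with the stricter filter, and the median interaction was 0.44 with DESeq2. Without a minimum fold, called members numbered 1 higher and 52 lower (KO against WT, DMSO), 11 and 32 (5-FU, KO), 20 and 13 (KO against WT, 5-FU) and 38 and 2 (interaction). With the minimum fold inside the test they were 0 lower in KO cells under DMSO, 2 higher and 0 lower under 5-FU, and 8 for the interaction.

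Leaving out each library in turn gave 2 to 5 members lower (KO against WT, DMSO; median -0.40 to -0.30), 29 to 40 lower (5-FU, WT; median -0.83 to -0.59), 2 to 3 higher and 14 to 15 lower (5-FU, KO; median -0.26 to -0.21), 4 to 8 higher and 0 to 4 lower (KO against WT, 5-FU; median -0.03 to 0.17) and 11 to 24 higher (interaction; median 0.32 to 0.49). With 1 library left in a state, its spread was assumed to be that of the other states. The replicate number of the titles as a block changed 0 of 285 calls, with a median interaction of 0.36. Libraries with the same number did not deviate together throughout (correlations from -0.276 to 0.294, over 0.1 in 6 of 15 pairs). All correlations of replicate 2 were positive, from 0.062 to 0.294, whereas those of replicates 1 and 3 had both signs. The numbers in the file headers, tried as a block after seeing the data, left 0 members lower in KO cells under 5-FU, with correlations from -0.407 to 0.261. With the copied library kept as labelled, 0 members were lower after 5-FU in WT cells (median -0.47), 2 were higher and 11 lower in KO than WT cells under 5-FU (median -0.16), and 6 had an interaction (median 0.16).

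The study normalized with RUVg before its own tests, and its control genes and number of factors are not named. With 1 factor of unwanted variation (RUVg, 11123 control genes), 98.2% of the variance of the factor lay between the treatments, so that it takes up the effect of 5-FU. Medians were 0.01, 1.74, 1.93, 0.18 and 0.19 in the order of the comparisons above. Called members were 1 lower (KO against WT, DMSO), 0 lower (5-FU, WT), 0 higher and 0 lower (5-FU, KO), 8 higher and 2 lower (KO against WT, 5-FU) and 8 above and 1 below 0 (interaction). Between genotypes the sign of 30 members under DMSO and of 5 under 5-FU turned, as did that of 9 interactions. Of these, 0 were called with or without the factor. After 5-FU the sign of 49 members in WT and of 37 in KO cells turned, of which 0 were called with the factor. The 42 that were called without it were, in WT cells, *CCNB1* 0.85, *CCNB2* 1.49, *BIRC5* 0.09, *BUB1* 2.67, *BUB1B* 1.35, *MAD2L1* 2.26, *TTK* 1.98, *CDC20* 0.17, *CENPA* 0.39, *CENPE* 5.72, *CENPF* 3.31, *NUF2* 2.91, *SPC25* 1.24, *KIF2C* 1.09, *KIF11* 2.78, *KIF14* 2.42, *KIF18A* 2.36, *KIF20A* 2.11, *KIF20B* 3.22, *KIF23* 2.22, *AURKA* 2.74, *DLGAP5* 4.23, *HMMR* 3.34, *ASPM* 1.48, *NEK2* 2.07, *PLK4* 0.98, *PRC1* 0.12, *RACGAP1* 1.54, *NCAPG* 2.64, *CDCA2* 2.63, *ESCO2* 1.79, and in KO cells, *CCNB1* 0.57, *CCNB2* 1.23, *CKS2* 0.17, *BUB1* 2.60, *MAD2L1* 2.33, *CENPE* 4.91, *KIF18A* 2.29, *AURKA* 2.39, *HMMR* 2.78, *ASPM* 1.08, *PLK4* 1.84. Depth did not limit the members, whose lowest count was 352.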
